A study of Mus musculus with 9 samples.

Results

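At embryonic day 9.5, cells dissected from mouse interlimb somites had been sorted into a GFP+ and a GFP- population, and their transcripts were compared across all genes. The comparison rests on 6 of the 9 arrays of the series, 3 of GFP+ and 3 of GFP- cells, taken by their sample titles. The GFP+ cells came from Pax3 GFP/+ embryos, in which the coding sequence of GFP replaces that of Pax3 on 1 allele, so they carry a single functional copy of Pax3. For the GFP- cells the labels give no Pax3 genotype. The study's statistical methods place them in Pax3 GFP/+ embryos and its list of hybridised groups names Pax3+/+, and the genotype is therefore uncertain. The remaining 3 arrays hold GFP+ cells of PAX3-FKHR/GFP embryos, which carry the GFP allele together with an allele that makes the PAX3-FKHR fusion protein. These are used only where their values are set beside the others. The lines were on a C57BL6/DBA2 background, tissue of many embryos was pooled, and the hypaxial (ventrolateral) part of the somite was dissected away from the neural tube. Titles, source and tissue of the labels give interlimb somites for both populations. The treatment protocol of the labels speaks of forelimb buds, however, and so does the study where it describes the sort and a GFP- population, so that the origin of the GFP- cells is not fully settled.

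Somites are paired blocks of mesoderm beside the neural tube. The dorsal epithelium of each, the dermomyotome, holds muscle progenitors that express the transcription factor Pax3, and cells leaving its edges form the myotome, where skeletal muscle first differentiates. The ventral part, the sclerotome, gives rise to cartilage and bone of the axial skeleton. Pax3 is also transcribed in the dorsal neural tube and in neural crest cells that migrate past the somite, and lateral to the somite lie intermediate and lateral plate mesoderm, surface ectoderm, vessels with primitive blood and, below, the gut. GFP is a stable protein that can outlast transcription of the allele, so that a GFP+ cell need not still transcribe Pax3.

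Every value is a log2 RMA value (Robust Multichip Analysis) on a scale where a step of 1 is a doubling. A gene was called when its adjusted p was under 0.05 and its log2 difference at least 0.5 (1.41-fold) in either direction. Differences are GFP+ minus GFP-, and errors after ± are standard errors of the difference from limma. The median over all probe sets lay at 4.66, and genes near or below it are dim, so that a fold against such a value depends on the background of the array. Across probe sets the correlation between arrays was 0.9962 to 0.9979 within a group and 0.9872 to 0.9886 between GFP+ and GFP-. A sample in bulk cannot show whether fewer cells of a type or less transcript in each cell lies behind a lower value, here or in any result that follows.

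Pax3 itself checks the sort. Its values were 9.06, 9.29 and 9.24 in the GFP+ samples and 4.48, 4.82 and 4.20 in the GFP- samples. The groups lay far apart, with a log2 difference of 4.70 ± 0.14, or 25.9-fold (adjusted p = 1.6e-08), and the other probe sets of the gene gave 6.54 and 4.09. Primers with which the study amplified marker transcripts are printed here because each pair amplifies a transcript that was higher in GFP+ cells. Pax3 marks the dermomyotome, Sim1 its lateral part, Zic1 the dorsal somite and Sox10 neural crest. Pax3 and Zic1 are not confined to these, as both are also transcribed in the dorsal neural tube, and Pax3 in neural crest.
Pax3 forward: taccagcccacgtctattcc
Pax3 reverse: tagcctgcggtgctataggt
Sim1 forward: agggacaagtgaccaccaag
Sim1 reverse: caggacaattcgtgctgaga
Zic1 forward: tctgcttctgggaggagtgt
Zic1 reverse: ctgttgtgggagacacgatg
Sox10 forward: gaccagtaccctcacctcca
Sox10 reverse: ttacctcgtggctgatctcc

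Of 18193 genes, 349 were higher in GFP+ cells (1.92%) and 918 were lower (5.05%), so that 6.96% were called in all and 2.63 genes were lower for each that was higher. The values of the 2 groups did not overlap in 28.2% of all genes and in 1266 of the 1267 called genes. The median difference over all genes was 0.01. At least 2-fold differences were found for 128 higher and 395 lower genes, at least 8-fold for 16 and 42, and at least 16-fold for 7 and 16. When each array was left out in turn, 276 of the higher and 758 of the lower genes were called in every fit. In 85 of the genes called higher the GFP- mean was below the array median, and in 292 of those called lower the GFP+ mean was below it. The 15 largest gains held factors of the dermomyotome and of muscle (Dmrt2, Pax3, Meox2, Tcf15, Pax7, Myf5, Myog), muscle structural genes (Myh3, Tnnc2), genes of neural crest (Sox10, Foxd3) and of sclerotome (Uncx, Pax1), and Fap and Fst. The 15 largest losses held genes of red cells (Hba-x, Hbb-bh1, Alas2, Hemgn, Slc4a1), of lateral mesoderm (Hand2, Gata6, Tcf21), of epithelia (Krt8, Cdh1, Dsg2, Foxa1), and Shh, Lhx9 and Gpr50.

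**Figure D1:**
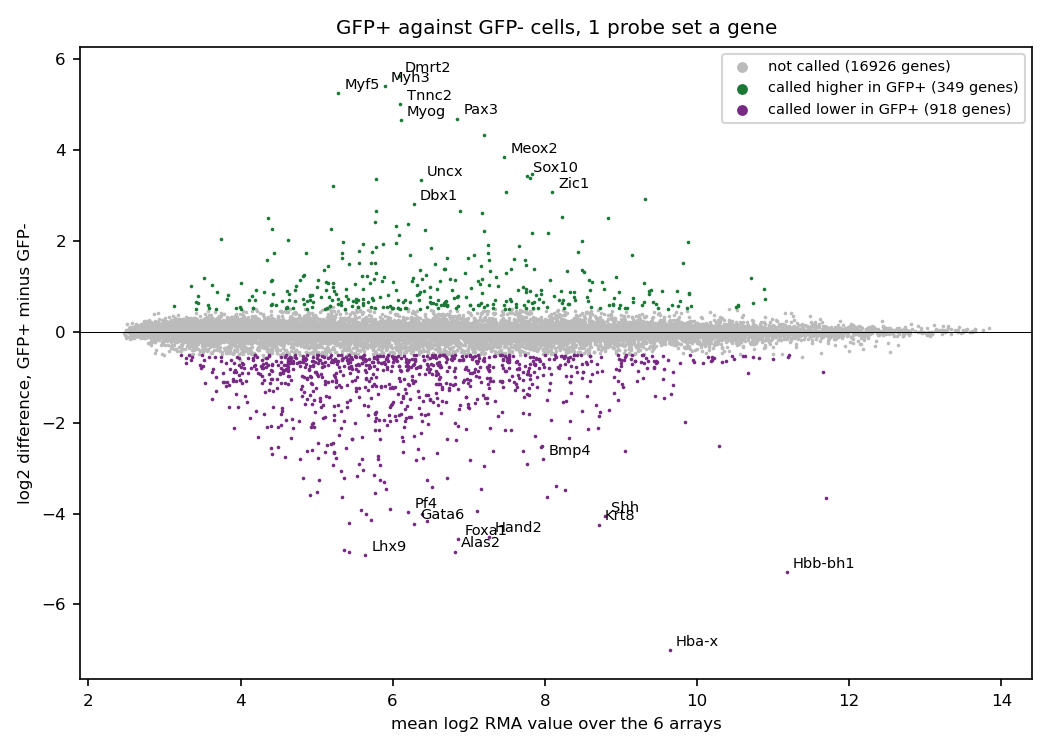
Log2 difference (GFP+ minus GFP-) of every gene against its mean log2 RMA value over the 6 arrays, 1 probe set a gene, with the 349 genes called higher in green, the 918 called lower in purple and the others in grey. The most reduced gene is Hba-x at -7.01, and the most raised Dmrt2 at 5.64.

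**Figure D2:**
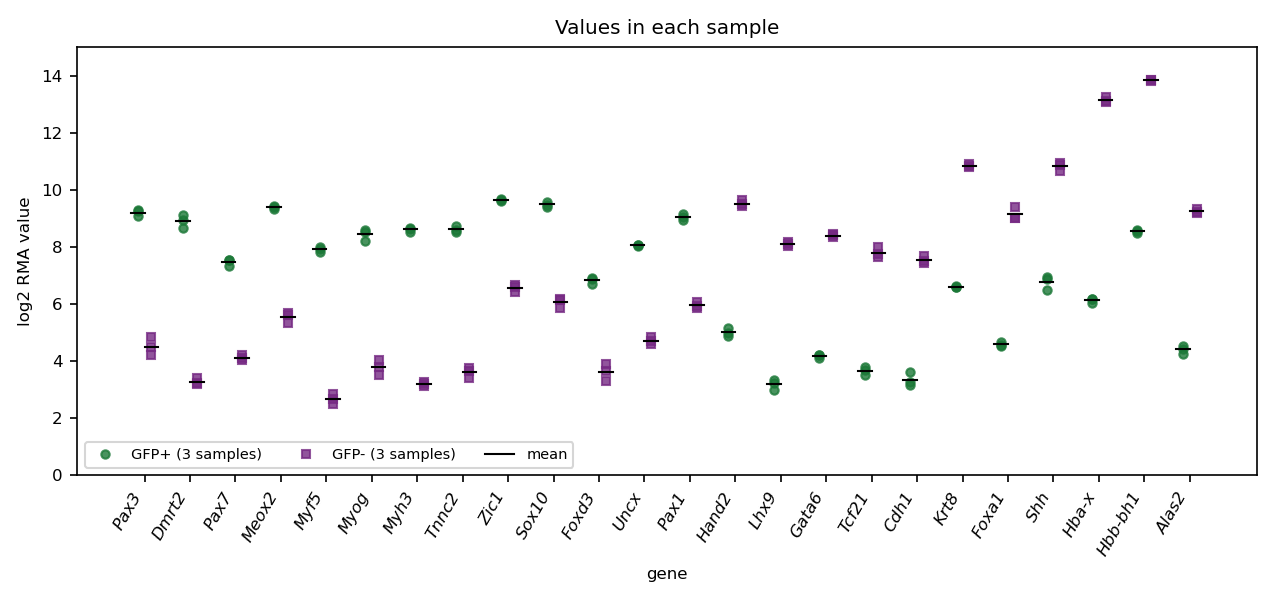
Log2 RMA values of 24 genes in each of the 3 GFP+ (circles) and 3 GFP- samples (squares), with group means as lines. The 24 genes were picked among those called, so that their lack of overlap follows from the choice. Over all genes 28.2% do not overlap.

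Transcription factors of the dermomyotome and of muscle progenitors formed the list with the highest share of gains. Of its 27 measured genes 16 were higher and 3 lower in GFP+ cells, with a median difference of 1.13 against 0.01 over all genes. Dmrt2, a doublesex-related factor needed for the epithelial dermomyotome, read 8.65, 8.95 and 9.10 in GFP+ and 3.39, 3.17 and 3.22 in GFP- samples. Its 49.9-fold gain (log2 5.64 ± 0.12, adjusted p = 1.4e-09) was the largest of all genes. The closest relative of Pax3, Pax7, which marks the central dermomyotome, read 7.52, 7.34 and 7.53 against 4.10, 4.02 and 4.19, a gain of 10.2-fold. Meox2 and Meox1, homeobox factors of the early somite, were 14.4-fold and 7.65-fold higher. Tcf15, also called paraxis, which keeps the somite epithelial, was 10.4-fold higher. Of the forkhead genes of paraxial mesoderm, Foxc2 was raised 5.73-fold and Foxc1 3.25-fold.

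Sim1 and Lbx1, of the lateral dermomyotome, and some Eya and Vgll genes were raised in smaller steps. Sim1 values were 7.61, 7.50 and 7.49 in GFP+ and 5.85, 5.83 and 6.05 in GFP- samples (3.08-fold). Lbx1, which marks progenitors that migrate into the limb, was dim in both, at 5.80, 5.80 and 5.75 and 4.70, 4.13 and 4.43 (2.57-fold). The transcriptional co-activators Eya2 and Eya1 were 3-fold and 2.62-fold higher and Dach1, a co-repressor, 1.54-fold, whereas Dach2 was 2.16-fold lower. Vgll3 and Vgll2, co-factors of TEAD proteins, gained 4.06-fold and 2.04-fold, while Vgll1 and Vgll4 were not called (0.07 and 0.02). Mkx, a homeobox factor of tendon and muscle precursors, gained 2.19-fold. Both basic helix-loop-helix factors of head muscle in the list were lower: Tcf21 read 3.79, 3.50 and 3.67 against 8.0, 7.63 and 7.73 (17.6-fold), and Msc, musculin, was 3.03-fold lower. Factors of the presomitic mesoderm (Tbx6, Msgn1, Mesp2, Ripply2) were not called, with differences from -0.05 to 0.27.

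The 4 related factors that commit cells to muscle were all higher in GFP+ cells, by unlike amounts. Myf5 read 7.98, 7.92 and 7.83 in GFP+ cells and 2.83, 2.66 and 2.47 in GFP- cells, 38.2-fold higher (log2 5.25 ± 0.10, adjusted p = 1e-09). Myog, which drives differentiation in the myotome, read 8.21, 8.57 and 8.53 against 3.77, 3.51 and 4.04, 25.4-fold. Myf6 was 6.34-fold higher. Myod1 was the weakest, with dim values of 5.10, 4.69 and 4.88 against 4.51, 3.89 and 4.24 (1.6-fold, adjusted p = 0.026), and its call was lost when any of 4 arrays was left out, with log2 differences of 0.51 to 0.69 and adjusted p of 0.098 to 0.11. Thus Myf5 transcripts stood well above the array median in GFP+ cells while Myod1 stayed near it.

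Over the list of muscle determination and differentiation, 14 of 34 genes were higher and 4 lower, with a median of 0.27. Cdh15, the cadherin of muscle precursors, was 5.32-fold higher, and the fusion proteins Mymx and Mymk were 3.33-fold and 1.88-fold higher. Mef2c, partner of the myogenic factors, gained 2.19-fold, and its 4 other probe sets gained between 0.73 and 0.98 on the log2 scale. The subunits of the acetylcholine receptor, Chrnb1, Chrna1 and Chrng, 3 of those in the list, gained 2.02-fold, 1.66-fold and 1.61-fold. The lower genes were Myl4, an atrial and embryonic myosin light chain (2.05-fold), Csrp3, a striated muscle LIM protein (1.97-fold), Ankrd1, a stress-responsive protein of heart muscle (1.51-fold), and Rgs4, a regulator of G-protein signalling (1.43-fold). The call of Ankrd1 was lost without replicate 2 or 3 of the GFP+ or 1 or 3 of the GFP- cells (-0.61 to -0.47), and that of Rgs4 without replicate 1 of the GFP+ or 3 of the GFP- cells (-0.46 and -0.45). Without replicate 3 of the GFP- cells the list held 2 lower genes.

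Among genes of the sarcomere, the contractile unit of striated muscle, 11 of 35 were higher and 3 lower (median 0.38). Myh3, the embryonic myosin heavy chain, read 8.67, 8.61 and 8.53 in the GFP+ and 3.13, 3.24 and 3.20 in the GFP- samples (42.6-fold). Tnnc2, the fast troponin C, was close behind it with 8.51, 8.60 and 8.73 and 3.64, 3.40 and 3.73 (32.5-fold). Both lay below the array median in every GFP- sample. Skeletal alpha-actin, Acta1, gained 6.14-fold, and Tnnt1, Mybph and Myl1 gained 3.88-fold, 3.44-fold and 3.32-fold. Cardiac alpha-actin, Actc1, which embryonic skeletal muscle also makes, was bright in both populations, at 10.31, 10.39 and 10.46 and 9.99, 9.91 and 9.94, and its difference of 0.44 ± 0.055 missed the limit. The lower genes were Myh7 (6.39, 6.24 and 6.24 against 7.09, 7.10 and 7.24), Myl3 (1.57-fold) and Nebl (2.28-fold), which are genes of slow or heart muscle. Myl3 stayed under the limit, at -0.485, by its brightest probe set of a name that does not mark shared transcripts. Of 14 smooth muscle genes none was higher and 5 were lower (median -0.35), led by Itga8 (2.63-fold), the smooth muscle co-activator Myocd (1.96-fold) and Cnn1 (1.8-fold). Acta2, smooth muscle actin, was 1.45-fold lower by its brightest probe set, a call lost without replicate 1 of the GFP- cells (-0.49). By its brightest probe set of a name that does not mark shared transcripts it was 0.24 higher on the log2 scale, without a call. That probe set was dim, with means of 3.49 in GFP+ and 3.25 in GFP- cells.

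The muscle genes that were raised, and the red cell genes that were lowered, were searched for short motifs in the 250 bases before their RefSeq start sites (GRCm38.p6). Of the 25 muscle factor and sarcomere genes called higher, 18 matched with 20 promoters, and the E-box CAGCTG lay in 8 of these 20, against 13% of all 32851 promoters of the same length. The wider E-box CANNTG, which includes CAGCTG, lay in 17 of 20 and in 66.2%. A strict pattern for MEF2, YTAWWWWTAR, lay in 3 of 20 and in 2.92%. In it Y is C or T, W is A or T and R is A or G. Of the 27 red cell genes called lower, 21 matched with 24 promoters, and the GATA motif AGATAA lay in 7 of them (29.2%) against 9.99% of all. It lay in 2 of the 20 muscle promoters, and CAGCTG in 0 of the 24 red cell promoters. Both strands were searched. Matches describe letters, not binding. The windows of the receptor genes Chrna1 and Chrng are printed as those with a pair of CAGCTG matches, in capitals, and those of Alas2 and Epor, the first enzyme of heme synthesis in red cells and the erythropoietin receptor, as examples with AGATAA, which stands on the other strand and reads TTATCT in capitals.
Chrna1 (chr2:73580339-73580588, minus strand): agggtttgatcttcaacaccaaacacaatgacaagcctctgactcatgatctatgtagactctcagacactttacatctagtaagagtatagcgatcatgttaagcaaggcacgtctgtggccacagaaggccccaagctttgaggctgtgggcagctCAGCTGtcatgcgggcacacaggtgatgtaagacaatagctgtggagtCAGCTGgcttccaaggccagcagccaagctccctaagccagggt
Chrng (chr1:87205561-87205810, plus strand): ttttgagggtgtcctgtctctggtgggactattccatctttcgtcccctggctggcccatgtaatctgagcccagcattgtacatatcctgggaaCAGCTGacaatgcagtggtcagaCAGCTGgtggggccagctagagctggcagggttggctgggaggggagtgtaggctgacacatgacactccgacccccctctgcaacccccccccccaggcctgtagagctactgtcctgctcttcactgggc
Alas2 (chrX:150547167-150547416, plus strand): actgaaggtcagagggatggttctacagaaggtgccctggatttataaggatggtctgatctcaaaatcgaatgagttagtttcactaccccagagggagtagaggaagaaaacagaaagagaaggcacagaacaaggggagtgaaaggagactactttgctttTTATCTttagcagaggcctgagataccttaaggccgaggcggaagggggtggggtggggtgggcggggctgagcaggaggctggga
Epor (chr9:21963577-21963826, minus strand): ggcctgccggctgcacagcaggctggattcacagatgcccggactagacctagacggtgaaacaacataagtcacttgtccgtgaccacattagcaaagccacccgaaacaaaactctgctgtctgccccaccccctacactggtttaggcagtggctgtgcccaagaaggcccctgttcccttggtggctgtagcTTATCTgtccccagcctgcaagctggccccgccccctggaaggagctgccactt
In Chrna1 the matches ended 39 and 87 bases before the start, in Chrng 127 and 150, in Alas2 81 and in Epor 49. None of Myh3, Myf5, Tnnc2 and Myog, the muscle genes of largest gain with a promoter in the table, held CAGCTG or the MEF2 pattern there. The windows of Myog and Myh3 held ctatatttat and ctatatatac, which miss the pattern only at the last base. Looser forms of the MEF2 site were not searched.

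Some genes of the sclerotome were raised as well. Of 24 measured regulators of sclerotome and tendon progenitors 11 were higher and 3 lower, with a median of 0.15. Uncx, a homeobox factor of the caudal sclerotome, read 8.03, 8.05 and 8.05 in GFP+ and 4.82, 4.70 and 4.59 in GFP- cells (10.2-fold, adjusted p = 2.8e-09). Pax1, which the sclerotome needs to form vertebrae, read 8.92, 9.05 and 9.14 against 5.93, 5.85 and 6.06 (8.51-fold). Its paralogue Pax9 gained only 1.62-fold. Fmod, a matrix proteoglycan of tendon, gained 5.23-fold, the forkhead genes Foxd1 and Foxd2 3.96-fold and 1.78-fold, and Col2a1, the cartilage collagen, 1.83-fold. By its brightest probe set of a name that does not mark shared transcripts, Fmod gained only 0.48 ± 0.089 on the log2 scale, without a call. Scx, the tendon progenitor factor, and Nkx3-2, a downstream factor of the sclerotome, were not called (0.10 and 0.05). Prrx1, Prrx2 and Foxf2, which mark loose mesenchyme of lateral and cranial origin as well, were lower by 2.85-fold, 2.11-fold and 1.86-fold. The list holds Meox2, Sox5 and Sox9, which other lists also hold.

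Neural crest markers were the third group of gains: 12 of 27 measured genes were higher and 4 lower (median 0.21). Sox10, the factor that crest cells and their glia depend on, read 9.40, 9.46 and 9.58 in GFP+ samples and 6.15, 6.13 and 5.86 in GFP- samples (10.8-fold, adjusted p = 6.8e-09). Its other probe sets gave 0.90, called, and 0.02, not called. Foxd3, an early crest factor, read 6.68, 6.86 and 6.91 against 3.65, 3.88 and 3.29 (9.23-fold). Cdh19, a cadherin of Schwann cell precursors, the neuregulin receptor Erbb3 and the factor Tfap2b were raised 4.82-fold, 4.64-fold and 4.55-fold. Ednrb, the endothelin receptor of migrating crest, gained 1.55-fold and Ets1 1.63-fold. Ngfr, Snai2 and Ret were not called, with 0.14, -0.05 and 0.04. The lower members were Hand2 (22.7-fold), Tfap2c (2.95-fold), Kit (2.92-fold) and Phox2a (1.88-fold). Hand2 is also a factor of lateral mesoderm, Tfap2c of surface ectoderm and Kit a receptor of blood progenitors. The study allows that Pax3 positive crest cells were in the dissected tissue. The mean over this list was 6.98 to 7.02 in the GFP+ and 6.53 to 6.59 in the GFP- samples. What part crest cells have in the other gains was not tested.

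Zic1, a zinc finger factor of dorsal neural tube and dorsal somite, was bright and 8.45-fold higher in GFP+ cells (9.60, 9.66 and 9.65 against 6.65, 6.60 and 6.42). Zic5 gained 2.33-fold. Zic4 gained 1.66-fold and lost its call without replicate 2 of the GFP+ cells (0.65, adjusted p = 0.058), and Zic2 was not called (0.51 ± 0.15). In a list of 9 Zic and dorsal patterning genes, 3 were higher and 2 lower (median 0.05), the lower being Msx2 and Bmp4.

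Genes of the neural tube were mostly lower in GFP+ cells. Of 38 measured genes 3 were higher and 22 lower (median -0.80). The 3 higher genes were Dbx1 (7.76, 7.63 and 7.65 against 4.90, 4.92 and 4.78, 7.02-fold), a homeobox factor of intermediate progenitors, Olig3 (2.19-fold), of dorsal progenitors, and Pou4f1 (4.81-fold), of dorsal interneurons and crest-derived sensory neurons. Factors of the ventral neural tube were lower: Nkx6-1 by 6.21-fold, Olig2, of motor neuron progenitors, by 5.86-fold (3.31, 2.97 and 3.06 against 5.75, 5.96 and 5.29), Nkx2-2 by 3.37-fold and Isl1, of motor neurons, by 5.67-fold. Isl1 also marks lateral mesoderm. The largest loss was that of Lhx9, at 3.21, 2.99 and 3.33 against 8.17, 8.03 and 8.10 (30.3-fold), followed by its relative Lhx2 (6.71-fold). Both are factors of limb mesenchyme in addition to neurons. Neuronal genes such as Stmn2, Dcx and Elavl4 were lower by 3.72-fold, 3.25-fold and 3.38-fold. The pan-neural progenitor factor Sox2 was not called (-0.42 ± 0.06).

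**Figure D3:**
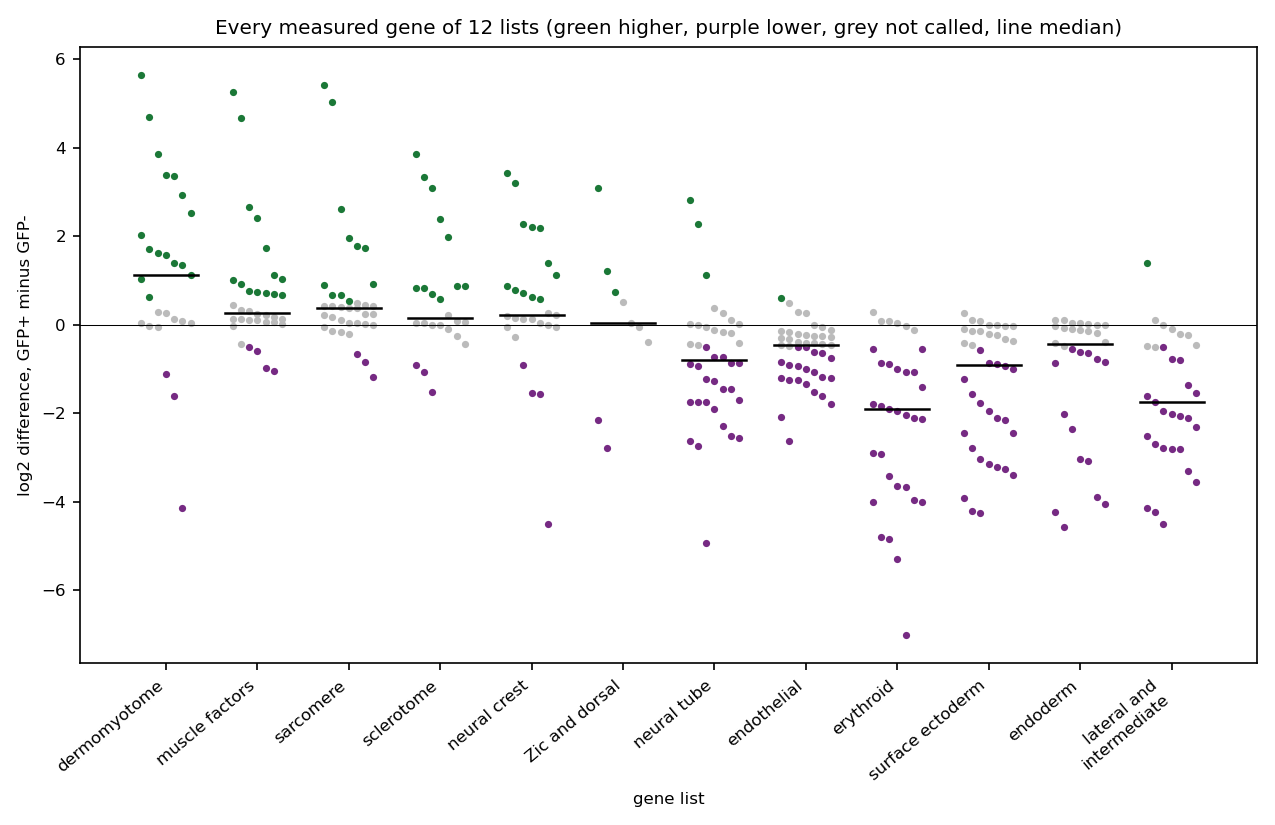
Log2 difference (GFP+ minus GFP-) of each measured gene in 12 lists, green if called higher, purple if called lower and grey if not called, with the median as a line. The dermomyotome median is 1.13, the erythroid median -1.90 and the lateral and intermediate mesoderm median -1.75.

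Regulators of lateral and intermediate mesoderm were mostly reduced, with 22 of 31 measured genes lower, 8 not called, 1 higher (Eya1) and a median of -1.75. Hand2, a factor of limb bud and lateral plate, read 5.15, 4.88 and 4.99 in GFP+ and 9.49, 9.62 and 9.43 in GFP- cells (22.7-fold, adjusted p = 8.8e-10). Gata6, of visceral mesoderm and endoderm, read 4.19, 4.22 and 4.10 against 8.40, 8.43 and 8.33 (18.6-fold), and Gata4 was 4.07-fold lower. Pitx1 and Tbx4, factors of the hindlimb field, were 11.7-fold and 3.83-fold lower, and Tbx5, of the forelimb field and heart, 4.15-fold. Osr1 and Wt1, early kidney and coelomic genes, were lower by 6.98-fold and 3.05-fold, and Upk3b, a mesothelial gene, by 6.94-fold. Foxf1 by its brightest probe set differed little (-0.09), whereas the mean of its probe sets was 1.25 lower and called. The mean over the list was 5.23 to 5.26 in GFP+ and 6.91 to 6.98 in GFP- samples.

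The T-box family behaved alike in part. Of 15 measured T-box genes 7 were lower and 1 higher (median -0.15). Besides Tbx4 and Tbx5 these were Tbx20 (6.43-fold), Tbx1 (2.93-fold), Tbx15 (2.4-fold), Tbx2 (2.22-fold) and Tbx3 (2.02-fold). The exception was Tbx22, a palate and somite gene, with dim values of 4.20, 3.97 and 4.20 against 2.93, 2.99 and 2.88 (2.28-fold higher).

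The list with the highest share of called genes was that of red cells. Of 33 measured primitive erythroid genes 27 were lower and none higher, with a median of -1.90. Hba-x, the embryonic zeta-globin, read 6.04, 6.18 and 6.18 in GFP+ samples and 13.24, 13.12 and 13.08 in GFP- samples, a 129-fold difference (log2 -7.01 ± 0.064, adjusted p = 6.1e-12). Hbb-bh1, an embryonic beta-like globin, fell from 13.81, 13.84 and 13.83 to 8.54, 8.47 and 8.59 (39.2-fold). Hbb-y was 12.6-fold lower, at 9.91, 9.83 and 9.87 in the GFP+ cells. Embryonic globins thus stayed above the array median in all 3 GFP+ samples, which lay close to each other. Alas2, by contrast, lay below it, at 4.25, 4.42 and 4.53 (28.6-fold lower), as did Hemgn, a nuclear protein of blood cells, at 2.88, 2.99 and 3.01 (27.8-fold lower), and Slc4a1, the anion exchanger of the red cell membrane, was 16.1-fold lower. The regulators Klf1 and Gata1 were 10.6-fold and 4.13-fold lower. Adult globin probe sets that name a single gene (Hba-a1, Hba-a2, Hbb-b2) were dim in both populations, at 3.32 to 4.35. Of 29 leukocyte and megakaryocyte genes 7 were lower and none higher (median -0.19), with Pf4, platelet factor, at 4.20, 4.14 and 4.30 against 8.39, 7.99 and 8.18 (15.7-fold).

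Many endothelial genes were lower, in smaller steps. Of 44 measured genes 21 were lower and 1 higher (median -0.46). Vwf, the von Willebrand factor, was 6.15-fold lower (3.73, 3.41 and 3.56 against 6.37, 6.04 and 6.17), Cd34 4.25-fold, Aplnr 3.06-fold and Cdh5, the cadherin of vessels, 2.86-fold (4.51, 4.04 and 4.33 against 5.76, 5.98 and 5.70). Kdr, the main VEGF receptor, was bright in both, at 8.25, 8.32 and 8.42 and 8.76, 8.76 and 8.90, and its difference of -0.48 ± 0.067 just missed the limit. It passed on leaving out replicate 3 of the GFP+ or replicate 1 or 2 of the GFP- cells (-0.52 to -0.50). Pecam1 was dim and level at 4.20, 3.92 and 4.05 and 3.95, 4.07 and 4.12. The higher gene, Fli1 (1.52-fold), lost its call on leaving out any of 4 arrays, with adjusted p of 0.060 to 0.067.

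Epithelial genes were a further large group of losses. Of 38 surface ectoderm genes 22 were lower and none higher (median -0.90), and of 30 endoderm and yolk sac genes 14 were lower and none higher (median -0.45). Krt8, a keratin of simple epithelia, read 6.58, 6.58 and 6.61 in GFP+ and 10.89, 10.83 and 10.78 in GFP- samples (18.9-fold, adjusted p = 7.7e-11). Cdh1, E-cadherin, read 3.60, 3.24 and 3.15 against 7.66, 7.44 and 7.50 (18.4-fold), and the desmosomal cadherin Dsg2 was 18-fold lower. The splicing regulator of epithelia Esrp1 was 15.2-fold lower and Trp63, the master factor of stratified epithelium, 9.61-fold (3.42, 3.49 and 3.28 against 6.61, 6.58 and 6.80). Foxa1 and Foxa2, forkhead factors of endoderm and, for Foxa2, floor plate and notochord, were 23.6-fold and 14.9-fold lower. Shh, the ligand made by gut, notochord and floor plate, read 6.49, 6.87 and 6.92 against 10.65, 10.87 and 10.94 (16.7-fold). Afp, alpha-fetoprotein of liver and yolk sac, was 8.39-fold lower by the probe set of highest mean, its other probe sets gave 63.6-fold and 16.3-fold lower values, called, and a pair that was not called (0.06 and -0.29), whereas liver genes such as Hnf4a and Apoa4 were not called (0.03 and 0.02). The mean over the ectoderm list was 4.85 to 4.93 in GFP+ and 6.26 to 6.30 in GFP- samples, and over the endoderm list 4.51 to 4.54 and 5.61 to 5.65. Gpr50, an orphan receptor related to the melatonin receptors, is in no list and fell from 7.69, 7.77 and 8.09 to 3.09, 2.83 and 3.11 (28.6-fold).

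**Figure D4:**
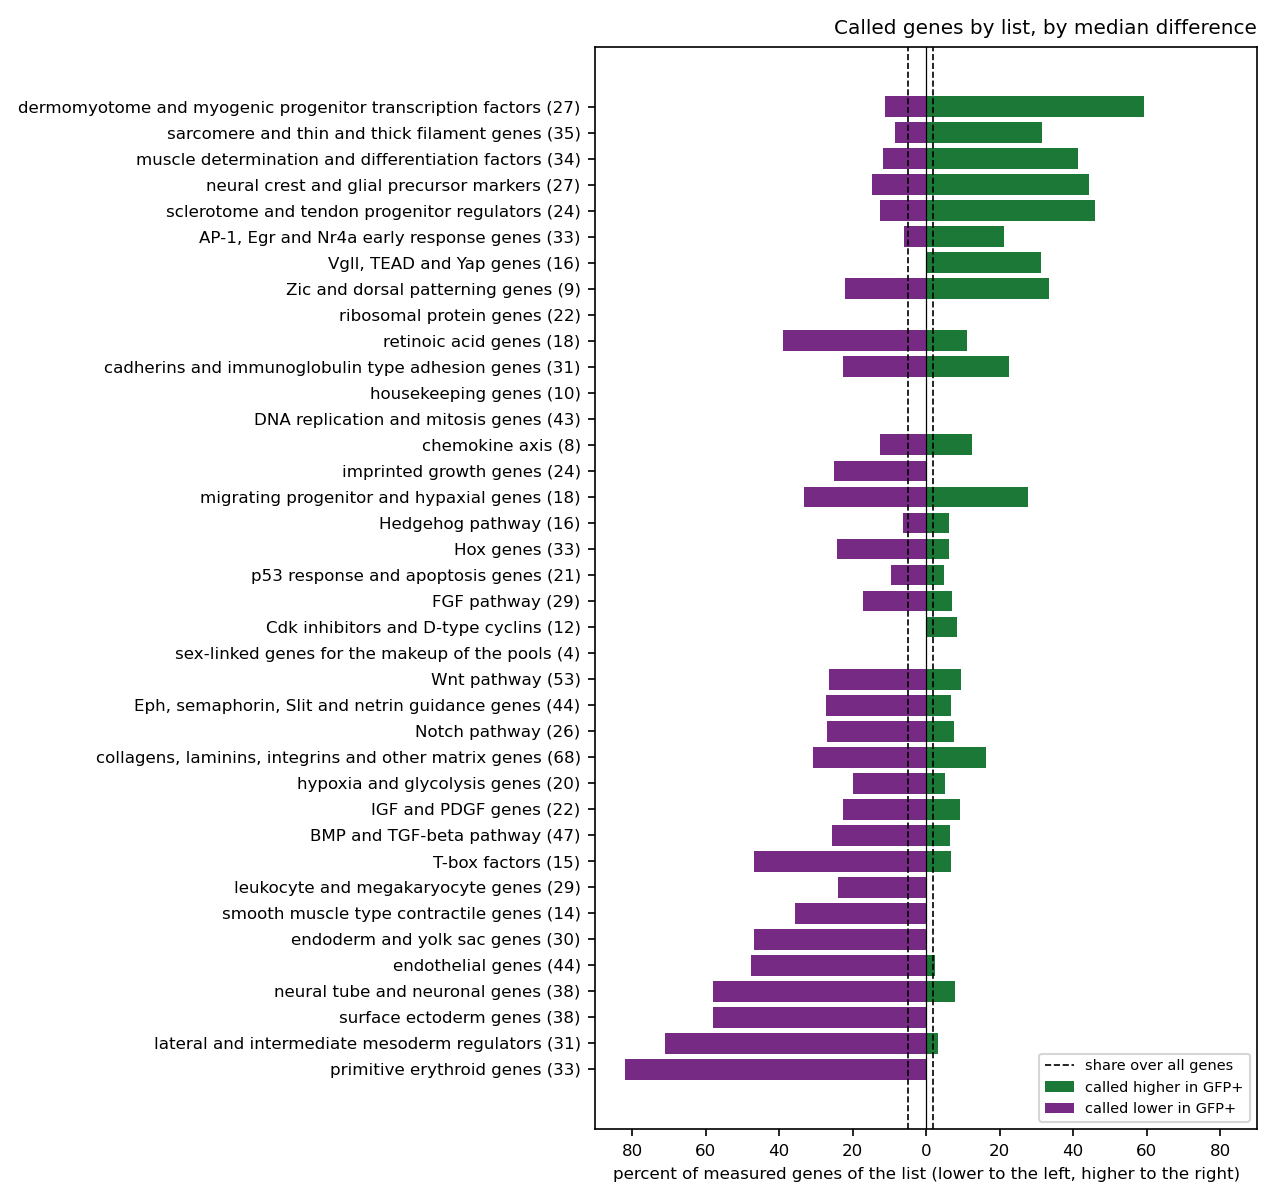
Percent of the measured genes of each list that were called higher (green, right) or lower (purple, left) in GFP+ cells, lists ordered by median log2 difference, number measured in brackets, and the shares over all genes (1.92% and 5.05%) as dashed lines. Dermomyotome factors reach 59.3% higher, erythroid genes 81.8% lower, and the replication, ribosomal, housekeeping and sex-linked lists hold no called gene.

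Hox genes, which mark position along the body and limb axes, are described by cluster. Of 33 measured genes 2 were higher and 8 lower (median -0.02). In the HoxD cluster, 4 of 8 were lower and 2 higher. The 2 higher were those of the 3′ end, Hoxd3 (7.78, 7.64 and 7.62 against 6.55, 6.44 and 6.69, 2.18-fold) and Hoxd1 (1.74-fold), and the lower were Hoxd8 (2.42-fold), Hoxd9 (6.65, 6.87 and 6.67 against 8.98, 9.02 and 9.04, 4.87-fold), Hoxd10 (4.8-fold) and Hoxd13 (4.03-fold). In the HoxA cluster Hoxa9, Hoxa10 and Hoxa11 were lower by 1.87-fold, 2.73-fold and 2.43-fold, and 6 others were not called. In HoxB only Hoxb1 was called (1.58-fold lower), and Hoxb9, at 0.49 ± 0.087, stayed under the limit. None of 7 HoxC genes was called, with differences from -0.27 to 0.41. That the clusters differ from each other was not tested.

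**Figure D5:**
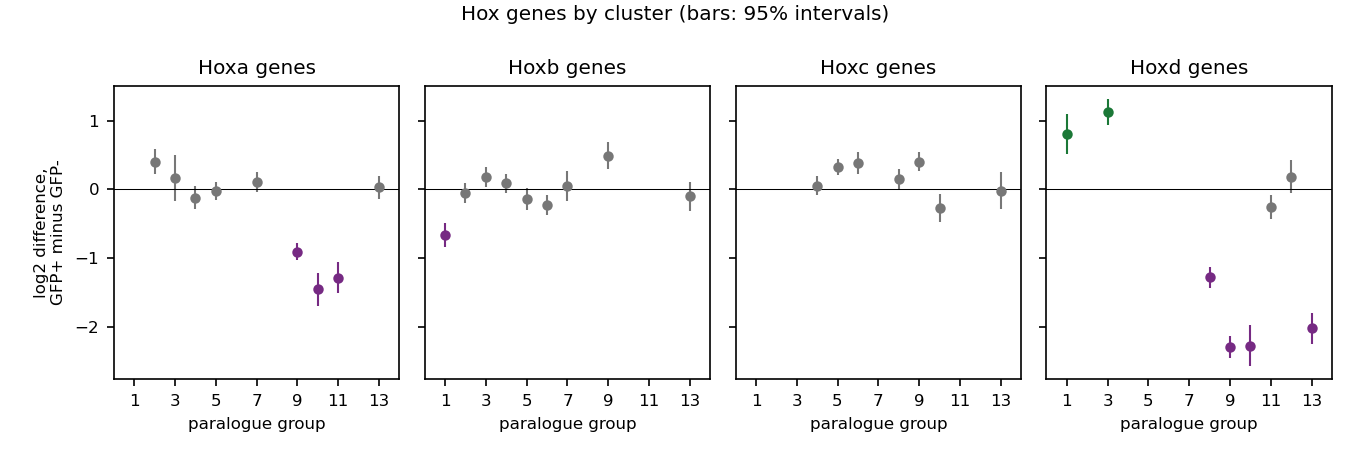
Log2 difference (GFP+ minus GFP-) of each measured Hox gene with its 95% interval against paralogue group, in a panel for each cluster, green if higher, purple if lower, grey if not called. Groups 8 to 10 and 13 of HoxD, 9 to 11 of HoxA and 1 of HoxB are the genes called lower, and all 7 HoxC genes lie between -0.27 and 0.41.

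Lists of signalling genes mostly held more lower than higher genes, as did all genes, with 2.63 lower for each that was higher. Their counts stand beside shares over all genes of 1.92% higher and 5.05% lower. In the BMP and TGF-beta list, 12 of 47 were lower and 3 higher (median -0.14). Bmp4, a ligand made by lateral mesoderm and ectoderm, read 6.61, 6.55 and 6.57 in GFP+ and 9.37, 9.41 and 9.32 in GFP- cells (6.93-fold), and Bmp7 and Bmp2 were 2.23-fold and 1.77-fold lower. Genes known as readouts of BMP signalling were lower with them: Msx2 and Msx1 by 4.43-fold and 3.89-fold, Bambi by 3.38-fold, Id4 by 2.82-fold, Smad6 by 2.22-fold and Smad7 by 1.69-fold. Id1, Id2 and Id3 were not called (-0.28, -0.03 and 0.01). The secreted inhibitor Fst, follistatin, which binds activin and BMPs, went the other way, with 9.58, 9.58 and 9.55 against 5.72, 6.41 and 6.13 (11.2-fold higher), and Tgfb3 gained 2.27-fold. The BMP antagonist Grem1 gained 1.6-fold, but not when any of 4 arrays was left out (adjusted p of 0.11 to 0.13).

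In the Wnt list 5 of 53 genes were higher and 14 lower (median -0.11). The ligand Wnt16 read 6.62, 6.99 and 6.92 against 5.14, 4.54 and 5.02 (3.85-fold higher), and the feedback genes Nkd2 and Sp5 gained 2.56-fold and 2.31-fold. Another readout of the canonical pathway, Axin2, was not called (-0.06). Wnt2 was 9.81-fold lower (4.39, 4.10 and 4.22 against 8.0, 7.21 and 7.39), Wnt4 3.06-fold and Wnt5a 1.91-fold. The R-spondins, which amplify Wnt signals, divided: Rspo2 and Rspo1 were 8.98-fold and 5.12-fold lower, and Rspo3 1.48-fold higher.

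Fgf18, a growth factor, was 3.82-fold higher (6.43, 6.56 and 6.76 against 4.47, 4.83 and 4.65), and the receptors Fgfr3 and Fgfr2 were 2.43-fold and 2.13-fold lower, while Fgfr4 and Fgfr1 were not called (0.01 and -0.33). By its brightest probe set of a name that does not mark shared transcripts, Fgfr2 differed by -0.49 ± 0.11, without a call. Of 29 FGF genes 2 were higher and 5 lower (median -0.08), or 6.9% and 17.2%, against 1.92% and 5.05% of all genes. Without replicate 2 of the GFP- cells 1 was higher, and without replicate 3 of the GFP+ cells 3 were lower. In the Hedgehog list 1 of 16 genes was higher and 1 lower (6.2% each, median -0.01), the lower share being close to that of all genes. The co-receptor Boc gained 3.26-fold (7.99, 7.83 and 7.94 against 6.12, 6.26 and 6.27), and Shh was lower as described. Targets of the pathway, Gli1, Ptch1 and Hhip, were not called, with 0.10, -0.48 and -0.07. In 2 of the fits with an array left out a second Hedgehog gene was called lower. In the Notch list 2 of 26 were higher and 7 lower (median -0.11). Heyl, a nuclear effector of the pathway in muscle and vessels, gained 5.01-fold (7.10, 7.29 and 7.25 against 4.69, 4.88 and 5.10) and Hes1 1.49-fold, and the ligands Jag1, Jag2 and Dll3 were 1.84-fold, 1.52-fold and 1.75-fold lower. Dll1, the ligand of the somite, was level (0.02).

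Retinoic acid genes held 2 higher and 7 lower of 18 (median 0.04). Aldh1a2, the synthesising enzyme of paraxial mesoderm, gained 1.43-fold and lost its call, at 0.50, without replicate 2 of the GFP+ cells, and Stra6, the retinol receptor, gained 1.44-fold and lost it without any of 3 arrays (0.42 to 0.52). Lower were the carrier Rbp4 (5.13-fold), the enzyme Aldh1a1 (2.79-fold) and the receptors Rarb (2.07-fold) and Rarg (1.55-fold). Of 22 IGF and PDGF genes 2 were higher and 5 lower (median -0.12), with Irs4, an adaptor of insulin-like receptors, 1.55-fold higher and Pdgfa and Igfbp2 2.15-fold and 1.95-fold lower. The lower count of that list was 3 without replicate 3 of the GFP+ cells and its higher count 1 without replicate 3 of the GFP- cells, which took out Pdgfrb (1.48-fold, then 0.48).

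Genes of migrating progenitors went both ways: 5 of 18 were higher and 6 lower (median -0.01). These are 27.8% and 33.3%, against 1.92% and 5.05% of all genes. Met, the receptor that lets progenitors leave the dermomyotome for the limb, read 7.20, 7.02 and 7.05 in GFP+ and 6.51, 6.59 and 6.61 in GFP- samples. Its 1.44-fold gain (log2 0.52 ± 0.073) fell under the limit without replicate 1 of either group (0.47 and 0.49). Ebf2 and Ebf3, helix-loop-helix factors, gained 3.35-fold and 2.31-fold. Cxcl12, the chemokine that attracts such progenitors, gained 2.29-fold (11.34, 11.31 and 11.29 against 10.12, 10.08 and 10.15), its scavenging receptor Ackr3 was 2.2-fold lower and its signalling receptor Cxcr4 was not called (-0.34). Of 8 chemokine genes Cxcl12 and Ackr3 were the only ones called (median 0.00). The hypaxial factors Tbx3 and Msx1 were among the lower genes.

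Adhesion and matrix genes changed both ways. Of 31 cadherins and immunoglobulin-type molecules 7 were higher and 7 lower (median 0.02). Besides Cdh15, the higher ones were Cdh6 (2.62-fold), L1cam (2.02-fold), Cadm1 (1.92-fold), Ntm, Kirrel3 and Ncam1. Alcam was 3.91-fold lower (5.35, 5.60 and 5.27 against 7.23, 7.66 and 7.23), and N-cadherin, Cdh2, was level (0.06). Of 68 matrix and integrin genes 11 were higher and 21 lower (median -0.12). Col13a1, Col9a1 and Nid2 gained 2.38-fold, 1.89-fold and 1.81-fold, and Itga6, a chain of laminin receptors, 1.59-fold. Npnt, Hapln1 and Tnc, matrix proteins of kidney, heart and mesenchyme, were lower by 6.31-fold, 5.07-fold and 4.5-fold. Of 44 guidance genes 3 were higher and 12 lower (median -0.11), with netrin-1, Ntn1, 2.57-fold higher and its receptor Unc5b 4.48-fold lower.

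Genes of DNA replication and mitosis did not separate the populations. None of 43 was called, their differences ran from -0.17 (Mki67) to 0.21 (Ccna2), the median was 0.01, and the list mean lay at 10.17 to 10.19 in GFP+ and 10.13 to 10.17 in GFP- samples. No gene of the lists of 22 ribosomal protein, 10 housekeeping and 4 sex-linked genes was called either. Of 12 cell cycle inhibitors and D-type cyclins, Cdkn1a, which arrests differentiating myoblasts, was alone in being called, with 8.45, 8.41 and 8.60 against 7.02, 6.96 and 7.05 (2.78-fold higher). Without replicate 3 of the GFP+ cells 1 gene of that list was called lower. In the list of p53 response and apoptosis genes 1 of 21 (Cdkn1a) was higher and 2 were lower, the epithelial gene Perp (9.27-fold) and Trp53inp1 (1.72-fold). These are 4.8% and 9.5%, against 1.92% and 5.05% of all genes. Early response genes, which dissociation of tissue can induce, held 7 higher and 2 lower of 33 (median 0.11). Ccn2, Myc and Jun gained 1.92-fold, 1.83-fold and 1.48-fold, while Fos, Egr1 and Atf3 were not called (-0.01, 0.34 and 0.50). In the list of Vgll, TEAD and Yap genes 5 of 16 were higher and none lower (median 0.07): Vgll3, Vgll2, Ccn2, Ccn1 and Wwtr1, which encodes the Yap relative TAZ (1.84-fold). Yap1 and the TEAD genes were not called. Of 24 imprinted growth genes 6 were lower and none higher (median 0.00), led by Dcn and Phlda2 (4.23-fold and 2.99-fold). Of 20 hypoxia and glycolysis genes 4 were lower and 1 higher (median -0.12), with the glucose transporter Slc2a3 at 9.05, 9.07 and 8.98 against 11.56, 11.51 and 11.57 (5.71-fold lower). By its brightest probe set of a name that does not mark shared transcripts, Slc2a3 differed by only -0.47 ± 0.08, without a call.

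The PAX3-FKHR/GFP cells share the GFP- samples as reference, and their values are set beside the others here. In a fit of all 9 arrays with the same adjustment and limits, PAX3-FKHR/GFP cells had 1.43% of all genes higher and 0.77% lower relative to GFP+ cells. Most genes of the lists that were low in GFP+ cells were not called between these populations. Of 31 lateral and intermediate mesoderm genes 1 was higher (Isl1, 0.81), of 33 erythroid genes 1 (Hbb-y, 0.65), of 38 surface ectoderm genes 1 (Tfap2c, 0.61), and none was lower. Neural tube genes differed more, with 5 higher and 2 lower of 38. Of 44 endothelial genes 1 was higher and 1 lower. Hand2 read 5.01, 4.96 and 4.64, Krt8 6.86, 6.75 and 6.88 and Alas2 4.44, 4.51 and 4.33 in PAX3-FKHR/GFP cells. Alcam, an adhesion gene low in GFP+ cells, differed strongly, at 7.50, 7.74 and 7.42, a difference of 2.15 from GFP+ cells (adjusted p = 8.9e-08). Dermomyotome factors went both ways. Of the 27, 6 were higher in PAX3-FKHR/GFP cells (Lbx1, Vgll3, Tcf15, Pax7, Dmrt2 and Mkx, by 1.42, 1.31, 0.92, 0.67, 0.53 and 0.52) and 5 lower (Pax3, Dach1, Sim1, Foxc2 and Foxc1, with -0.91, -0.69, -0.66, -0.56 and -0.54). For Pax3 the direction was set by the genotype. The study treats it as a control, because these embryos do not transcribe the mouse gene. The signal was lower but not lost, as -0.91 is small beside the GFP+ minus GFP- difference of 4.70. Which transcripts of the targeted locus the probe set reads was not tested. Sarcomere genes held 15 lower and none higher of 35. Myh3 (6.50, 6.72 and 6.72) and Tnnc2 (6.43, 6.68 and 6.58) lay between the GFP+ and GFP- values, whereas Myh7 (4.56, 4.56 and 4.84) lay below both, as did Actc1, whose mean was 9.53. In the list of muscle determination and differentiation 8 of 34 were lower and 2 higher. Myog (7.15, 7.29 and 7.18) was among the lower, and the 2 higher were Myf5 (8.67, 8.85 and 8.87) and Cdh15 (7.47, 7.49 and 7.59).

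Agreement among probe sets set a last limit on single genes. Of 1267 called genes 718 had several probe sets with that symbol alone, and in 304 of these another one was called the same way and in 1 the opposite way. The genes with 1 call among several, such as Gpr50, Tcf21 and Shh, rest on their brightest probe set. Pax3, Meox2, Fst, Pax7, Pax1, Zic1, Krt8 and Hbb-bh1 were called the same way by every probe set.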

How the data were processed

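Transcripts of sorted cells were hybridised to Affymetrix whole-genome mouse arrays after a linear two-cycle 3′ amplification of RNA. Tissue of many embryos was pooled, so p-values measure the spread between samples of pooled cells. The study calls the samples of a group biological replicates but does not state that each came from a separate pool. The authors deposited log2 values obtained with RMA, which corrects background, adjusts the distributions of the arrays to each other and summarises probes. A shift of all transcripts would therefore not be seen. The sources used here state neither the RMA version nor which arrays were normalised as 1 set, and absence calls were not used.

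Of 45101 probe sets, 64 Affymetrix controls were left out. Of the 45037 tested, 34945 had 1 gene symbol in the platform annotation, 932 several and 9160 none. Each of 18193 genes was read from its single-symbol probe set of highest mean over all 9 arrays. Groups came from the sample titles. Differences were tested two-sided on the 6 arrays with limma 3.58.1 (lmFit, eBayes with an intensity trend) in R 4.3.3, p-values being adjusted by Benjamini-Hochberg over the 45037 probe sets. The local pooled error test of the study's methods, other normalisations, filters, gene summaries and fits without each array were alternatives. The scripts were tested on simulated data. The comparison and the 38 gene lists (973 of 1035 written genes measured) were chosen with earlier results of these data known, and no list was tested as a set. Lists are described by counts and medians beside those of all genes.

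A fixed choice underlies most genes named, but not all of it is printed. Ptprc, Igf1, Fgf3 and Dlk1, each the first of a list, and the uncalled Epha2 are examples left out. The choice held Pax3 and the 15 largest gains and 15 largest losses among genes called in every fit. From each list it held the first 3 measured genes, called or not, and up to 6 called genes of largest difference in each direction. Some others were picked after their values were seen: Foxc1, Foxc2, Sim1, Eya2, Dach1, Mkx, Mymk, the receptor subunits, Epor, Klf1, Gata1, Gata4, Wt1, Upk3b, Nkx2-2, Stmn2, Dcx, Elavl4, Col2a1, Foxd2, Ednrb, Ets1, Hoxa9, Hoxb1, Bmp7, Smad6, Smad7, Wnt5a, Itga6, and uncalled genes given for contrast. Promoter and primer sequences come from RefSeq (GRCm38.p6) and from the study.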

Additional observations from a re-analysis of the deposited data

How the results depend on the processing

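The 4 summary values (349 genes higher, 918 lower, 2095 probe sets called, and the Pax3 difference of 4.70) were recomputed, giving 63 values under the alternatives. Of these, 59 kept their direction and side of the threshold or stayed within 1.5 times the count. At a log2 difference of at least 1, 128 genes were higher, 395 were lower and 794 probe sets were called, and with only probe sets at log2 6 or more in a group 1286 probe sets were called, as fewer could pass. Leaving out each array gave 333 to 348 genes higher, 861 to 926 lower, 1963 to 2056 probe sets and Pax3 differences of 4.55 to 4.85. Acta2 alone among the named genes turned its direction, to 0.24 when _s_at and _x_at probe sets were left out, and the cause was not tested. The probe set then used had means of 3.49 and 3.25, below the array median of 4.66. For named genes, printed or not, 4418 of 4623 values kept their call, 192 lost it, 77 of them at the higher log2 limit and 37 with the mean over probe sets, and 12 gained one. Without _s_at and _x_at probe sets 7 lost it, among them Slc2a3, Fmod, Fgfr2 and Myl3. Genes that a setting removed are not in these totals. The filter at log2 6 thus counts 230 named genes, against 293 in the fit of all 9 arrays. Counts of lists moved by over 1.5 times in 74 of 1216 cases and their medians by more than the spread between samples in 120 of 608.

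Samples of the 2 groups share replicate numbers, but same-numbered samples deviated together only weakly, with correlations of 0.094, 0.062 and 0.009, and replicate 3 of the GFP+ cells correlated better with replicate 2 of the GFP- cells (0.018) than with its own number. The numbers were therefore not taken to pair the samples. With the replicate number as a block 349 genes were higher and 923 lower, 1264 calls were shared with the fit without it, 2122 probe sets were called, and among the named genes Zic2 gained a call (0.51, adjusted p = 0.029). With 3 arrays a group, and probe sets near the median of 4.66 limited by background, differences of dim genes are the least certain.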

Other observations

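Some genes outside every list, picked after their values were seen, add to the description. Among the gains, Fap, a membrane-bound serine protease, read 9.41, 9.32 and 9.41 in GFP+ samples and 5.13, 5.10 and 4.87 in GFP- samples (20.3-fold). Lrig1, an inhibitor of ErbB receptors, was 5.81-fold higher, and Megf10, a receptor of muscle satellite cells, 3.75-fold. Further genes of fast muscle were among them: Mylpf, a fast myosin light chain, was 4.74-fold higher (7.58, 7.42 and 7.63 against 5.78, 5.04 and 5.08), the calcium pump Atp2a1 2.33-fold and the muscle enzyme Pgam2 2.13-fold. Each of these 6 genes was called in every fit with an array left out.

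Among the losses were genes of the embryonic heart. Myh6, the atrial myosin heavy chain, read 4.13, 4.09 and 4.33 in GFP+ and 7.79, 7.52 and 7.63 in GFP- samples (11-fold lower). Myl7, an atrial myosin light chain, was 9.56-fold lower and Gata5, a factor of heart and gut, 5.53-fold. Shox2, of limb and sinus venosus, was 9.35-fold lower and Barx1, of stomach and facial mesenchyme, 6.22-fold. All 5 were called in every fit with an array left out.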
